A study of Mus musculus with 12 samples.

Results

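Matrix metalloproteinases (MMPs) and their tissue inhibitors (TIMPs) were examined as a list of 8 genes, Mmp8, Mmp9, Mmp12, Mmp13, Mmp14, Mmp19, Timp1 and Timp2, out of 20551 genes in the count table. All 8 were found by gene symbol, and 7 of them, all but Mmp9, passed the filter on low counts, which 13729 genes passed. RNA was sequenced from airway macrophages (AMs), the resident phagocytes of the airspace, of C57BL/6 mice. The 12 libraries formed 4 groups of 3: wild-type (WT) AMs in medium, WT AMs with lipopolysaccharide (LPS), Scnn1b-transgene (Scnn1b-Tg) AMs in medium and Scnn1b-Tg AMs with LPS. LPS came from Pseudomonas aeruginosa and was given at 100 ng/ml for 12 h, and the other libraries of each genotype received complete medium for the same time. In Scnn1b-Tg mice a promoter of airway club cells drives a sodium channel subunit, so the transgene acts in the epithelium and not in the macrophage, and mucus obstructs the airways. WT controls were littermates, and the study's methods give an age of 6 weeks. Each library came from a pool of 3 to 4 animals, and each of the 6 pools (WT 16, WT 17, WT 18, Tg 17, Tg 18 and Tg 19) supplied a medium and an LPS library. The labels put WT 16, WT 17 and Tg 17 in batch 1 and the remaining pools in batch 2. Sources disagree on the isolation, which was by adherence of lavage cells per the labels and by flow sorting from digested lung per the methods.

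MMPs are zinc-dependent proteases that cut extracellular matrix and many cell surface and secreted proteins. Most are secreted as inactive precursors, while MMP14 sits in the plasma membrane. TIMPs bind the active site of MMPs and block them, and TIMP2 also takes part in the activation of pro-MMP2 by MMP14. MMP12, macrophage elastase, is the main elastin-degrading MMP of mouse macrophages and is linked to emphysema. These data are transcript levels only, and neither secreted protein nor protease activity was measured here.

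The libraries held 48.2 to 60.9 M deposited counts each, and levels are given as counts per M (CPM) after TMM scaling. All 12 of 12 AM markers averaged at least 1 CPM, and their summed level ran from 13056 to 23328 CPM. It was lower with LPS in each genotype, at 13056 to 15106 against 18564 to 18852 CPM in WT AMs and at 14139 to 19637 against 19653 to 23328 CPM in Scnn1b-Tg AMs. Chil3 held the largest part of this sum. Group means of Marco, Car4 and Plet1 were higher with LPS in both genotypes, and that of Lpl was slightly higher in Scnn1b-Tg AMs only. The other AM markers had lower means with LPS. Markers of other cells were low. The 8 neutrophil markers in the table summed to 12.4 to 22.4 CPM, with S100a9 and Ngp at the detection floor in all libraries. The 6 epithelial markers summed to 80.4 to 118 CPM in the WT libraries and to 35.9 to 73.3 CPM in the Scnn1b-Tg libraries. The 5 fibroblast markers in the table reached 10.4 CPM at most, with Col1a1 and Col3a1 at the floor. Within each genotype their sum was higher in every LPS library than in every medium library. It was 6.11 to 8.57 against 2.81 to 3.26 CPM for WT and 6.21 to 10.4 against 3.89 to 5.37 CPM for Scnn1b-Tg pools. Dcn carried this rise, with means of 0.0473 and 0.0571 CPM in WT and Scnn1b-Tg medium libraries and 5.09 and 5.89 CPM with LPS. Means of Pdgfra were lower with LPS in both genotypes. T or NK cell and B cell markers each summed to 1.03 CPM or less. The 9 monocyte markers were lower in every LPS than in every medium library, at 6.52 to 9.25 against 19.5 to 32.7 CPM in WT and 7.65 to 9.68 against 22.2 to 29.4 CPM in Scnn1b-Tg AMs. Of 4 eosinophil markers, 3 were in the table, with Prg2 at the floor, and they summed to 2.34 to 3.85 with LPS against 14.8 to 20.5 CPM in WT and to 1.48 to 8.54 against 8.93 to 20.4 CPM in Scnn1b-Tg AMs. Nearly all of this sum was a single gene, Ear6. Its group means were 17.6 CPM in medium and 2.93 CPM with LPS in WT AMs, and 15.7 and 4.55 CPM in Scnn1b-Tg AMs. Ccr3 went the other way, from 0 CPM in medium to means of 0.192 and 0.0927 CPM with LPS. The part of these lists in the LPS changes of the members was not tested. Scnn1b itself, which the transgene expresses in epithelium, held 0 to 40 counts per library in all 4 groups and gives no check of genotype in these cells.

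The 3 members that rose with LPS, Mmp12, Mmp13 and Mmp14, are shown here with the 250 bases before their RefSeq start sites (GRCm38.p6), since promoter sequence is where the members that moved together can be compared. Mmp12 and Mmp13 are neighbours on chromosome 9, and Mmp14 lies on chromosome 14. Capitals mark matches to TGANTCA, the AP-1 motif, to TATAAA, the TATA box, and to the NF-kB consensus, each searched on both strands.
Mmp12 first start, chr9:7344147-7344396, plus strand: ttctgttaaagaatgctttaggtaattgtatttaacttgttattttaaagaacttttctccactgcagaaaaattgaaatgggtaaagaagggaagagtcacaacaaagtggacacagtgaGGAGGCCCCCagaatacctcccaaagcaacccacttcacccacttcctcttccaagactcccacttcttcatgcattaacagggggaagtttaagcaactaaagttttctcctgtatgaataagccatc
Mmp12 second start, chr9:7347124-7347373, plus strand: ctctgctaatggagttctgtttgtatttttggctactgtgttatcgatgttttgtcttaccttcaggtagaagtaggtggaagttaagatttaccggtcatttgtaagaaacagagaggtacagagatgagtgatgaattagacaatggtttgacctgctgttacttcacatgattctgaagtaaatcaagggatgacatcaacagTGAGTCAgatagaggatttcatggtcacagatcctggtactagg
Mmp13, chr9:7272264-7272513, plus strand: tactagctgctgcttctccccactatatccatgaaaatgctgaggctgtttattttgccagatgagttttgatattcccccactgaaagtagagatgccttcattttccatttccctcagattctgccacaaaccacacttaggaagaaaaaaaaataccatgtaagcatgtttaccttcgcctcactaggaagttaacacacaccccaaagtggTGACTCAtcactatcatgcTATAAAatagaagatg
Mmp14, chr14:54431348-54431597, plus strand: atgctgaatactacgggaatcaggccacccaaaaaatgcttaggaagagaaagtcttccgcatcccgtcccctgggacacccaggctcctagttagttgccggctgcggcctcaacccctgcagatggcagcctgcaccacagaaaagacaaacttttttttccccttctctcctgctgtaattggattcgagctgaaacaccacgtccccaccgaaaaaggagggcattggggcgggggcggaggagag
In Mmp13 an AP-1 match began 35 bases and a TATA match 16 bases before the start. Mmp12 held an NF-kB match 129 bases before its first start and an AP-1 match 44 bases before its second start. Mmp14 held none of the 3 motifs in this window, and neither did Mmp8, Timp1 or Timp2. Among the 32851 mouse promoters in the RefSeq table, windows of the same length held AP-1 in 6.75%, TATAAA in 12.4% and the NF-kB consensus in 7.25%. Promoters of Mmp9 and Mmp19 were not analysed here. A match describes these letters and does not show binding.

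The response of AMs to LPS was the first comparison. In WT AMs, 3 of the 7 members tested rose with LPS (Mmp12, Mmp13 and Mmp14) and 2 fell (Mmp19 and Timp2), against a background of 30.9% of all genes called at an adjusted p under 0.05 by edgeR's quasi-likelihood test, 15.2% higher and 15.7% lower. In Scnn1b-Tg AMs the same 3 rose and 3 fell (Mmp8, Mmp19 and Timp2), where the background was 36.7%, 18.8% higher and 17.8% lower. The median log2 fold change of the members was 1.03 in WT AMs and 0.87 in Scnn1b-Tg AMs, and that of all genes tested was 0.00117 and -0.016. In each genotype the member median is the value of Timp1, which was near the floor and passed no LPS test. It does not show a shift of the list as a whole. The LPS libraries lay above all medium libraries for 3 members and below them for 2 in WT AMs, where groups did not overlap for 38.7% of all genes, and above for 4 and below for 2 in Scnn1b-Tg AMs, where this held for 43.8%. In bulk RNA, fewer cells of a type and less RNA per cell cannot be told apart.

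**Figure D1:**
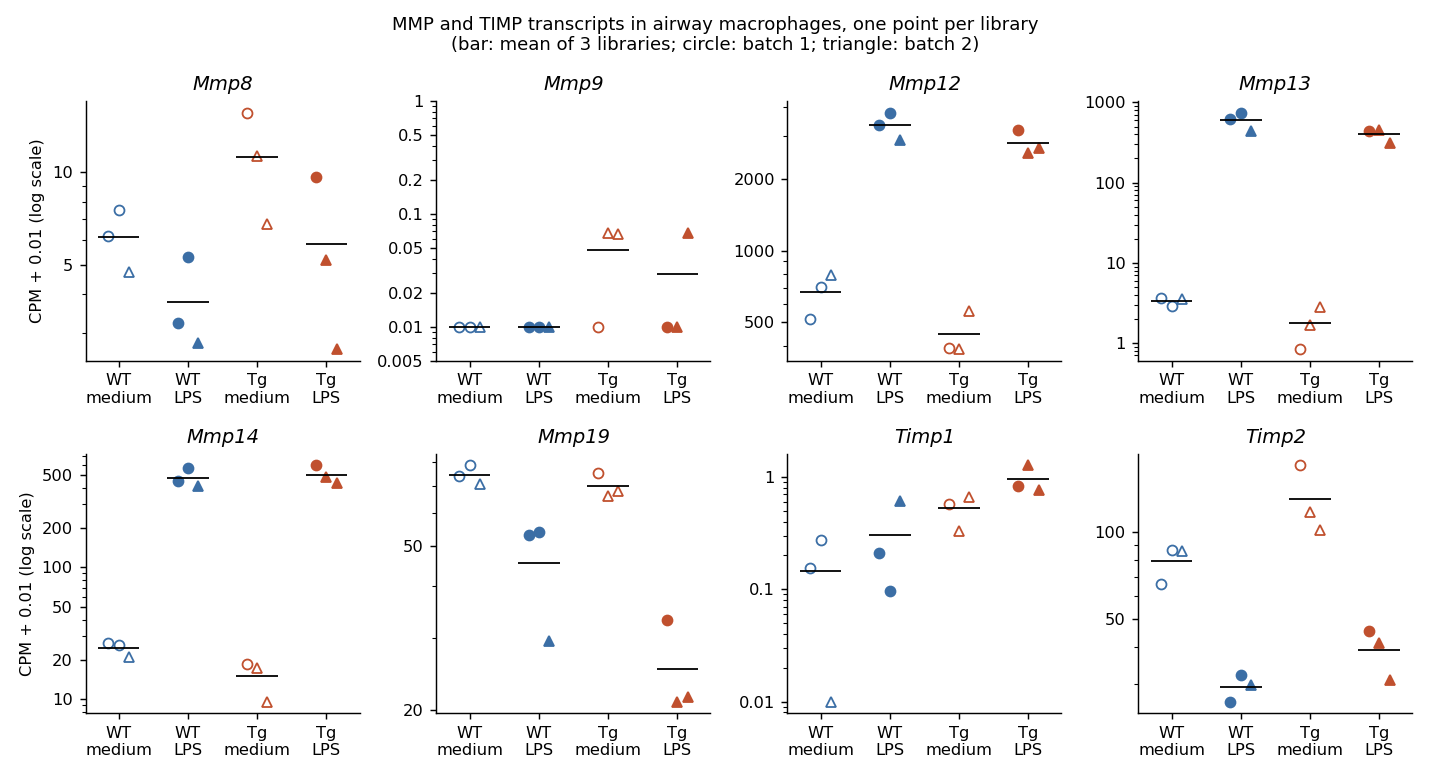
CPM (plus 0.01, log axis, with a separate range in each panel) of the 8 members in each of the 12 libraries by group, with bars at the mean of 3 libraries. Mmp12, Mmp13 and Mmp14 are higher in all LPS libraries than in all medium libraries, Timp2 and Mmp19 are lower, and Mmp9 is at 0 to 3 counts throughout.

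Mmp12, the macrophage elastase (ENSMUSG00000049723, chr9:7344381-7369499), had the highest level of the members per length in every group. In medium, WT libraries held 517, 704 and 791 CPM for pools 16, 17 and 18, and Scnn1b-Tg libraries held 391, 388 and 560 CPM for pools 17, 18 and 19. With LPS the WT libraries held 3337, 3775 and 2906 CPM and the Scnn1b-Tg libraries 3203, 2549 and 2680 CPM. Every LPS library was thus above every medium library. The rise was 4.99-fold in WT AMs (log2 fold change 2.32 ± 0.198 SE, adjusted p = 8.41e-06, edgeR) and 6.30-fold in Scnn1b-Tg AMs (2.66 ± 0.200, adjusted p = 2.42e-06). Within pools the ratio of LPS to medium ran from 3.68 to 6.46 in WT and from 4.78 to 8.19 in Scnn1b-Tg AMs, so the ranges overlapped.

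Mmp13, collagenase-3 (ENSMUSG00000050578, chr9:7272514-7283331), showed the largest fold change of the members. WT libraries in medium held 3.65, 2.85 and 3.58 CPM, and with LPS they held 613, 746 and 436 CPM. Scnn1b-Tg libraries went from 0.839, 1.65 and 2.80 CPM to 444, 449 and 315 CPM. The medium counts were 49 to 204 per library, so the gene was low but above the floor of 8 counts before LPS. Its rise was 178-fold in WT AMs (log2 fold change 7.48 ± 0.414 SE, adjusted p = 4.73e-07, edgeR) and 229-fold in Scnn1b-Tg AMs (7.84 ± 0.426, adjusted p = 2.37e-07). The fold varied more between pools than for Mmp12, from 122 to 261 in WT and from 112 to 529 in Scnn1b-Tg AMs, and pool Tg 17, with the lowest medium value, had the highest ratio.

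Mmp14, the membrane-bound MT1-MMP (ENSMUSG00000000957, chr14:54431612-54445364), held 26.6, 26.0 and 21.1 CPM in WT AMs in medium and 451, 570 and 415 CPM with LPS. The Scnn1b-Tg libraries held 18.6, 17.1 and 9.60 CPM in medium and 592, 483 and 434 CPM with LPS. Medium and LPS libraries did not overlap in either genotype. The rise was 19.5-fold in WT AMs (log2 fold change 4.29 ± 0.194 SE, adjusted p = 1.01e-07, edgeR) and 33.5-fold in Scnn1b-Tg AMs (5.06 ± 0.202, adjusted p = 3.22e-08). By pool, the ratio was 16.95, 21.95 and 19.7 in WT AMs and 31.9, 28.2 and 45.2 in Scnn1b-Tg AMs, without overlap. The share of all genes with ratios separated in this way was not taken. Medium levels were lower in Scnn1b-Tg AMs, while LPS levels overlapped between genotypes. The difference between the genotypes' responses was 0.78 on the log2 scale (95% interval 0.24 to 1.31) and did not pass the correction over all genes (adjusted p = 0.685, edgeR).

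**Figure D2:**
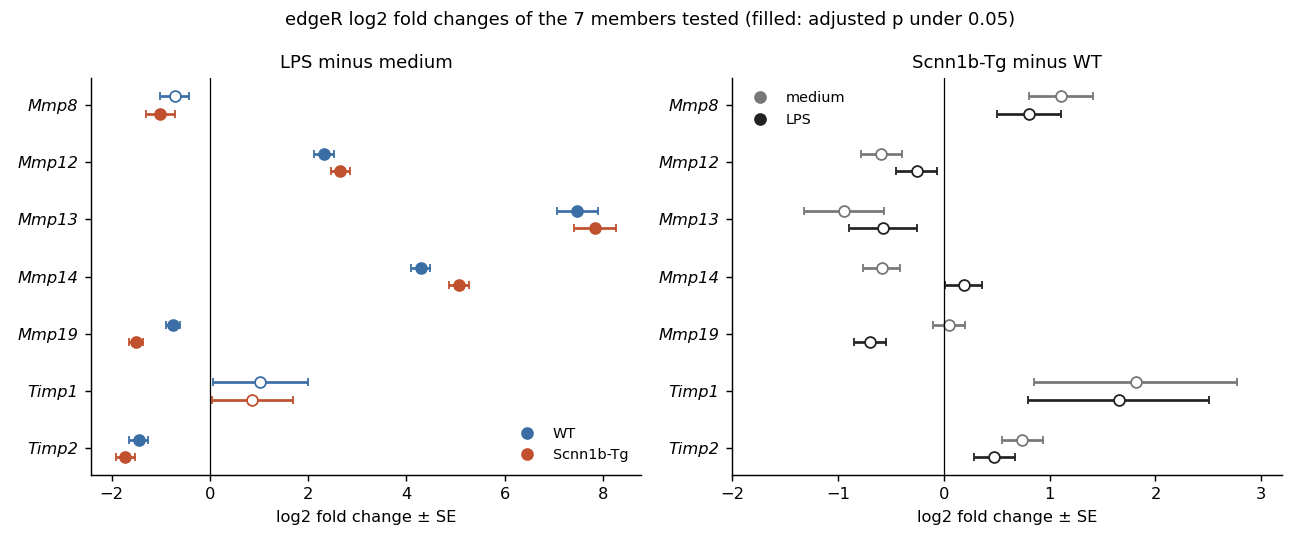
Log2 fold changes ± SE from edgeR for the 7 members tested, LPS minus medium in each genotype on the left and Scnn1b-Tg minus WT in each treatment on the right, with filled points where the adjusted p was under 0.05. All 7 points in each treatment on the right are open, and the 3 rises of 2.32 to 7.84 on the left stand apart from the falls.

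Mmp19 (ENSMUSG00000025355, chr10:128790910-128800824), a basement membrane-degrading MMP, moved the other way. WT libraries went from 73.8, 78.3 and 70.8 CPM in medium to 53.1, 53.9 and 29.4 CPM with LPS. Scnn1b-Tg libraries went from 75.0, 66.2 and 67.8 CPM to 33.1, 21.0 and 21.5 CPM. The medium libraries of the genotypes lay close together, and LPS libraries were lower in all 6 pools. The fall was 0.75 on the log2 scale in WT AMs (-0.75 ± 0.146 SE, adjusted p = 0.00250, edgeR) and 1.50 in Scnn1b-Tg AMs (-1.50 ± 0.148, adjusted p = 1.77e-05). Batch moved with it: the log2 differences were -0.50 in batch 1 and -1.25 in batch 2 for WT AMs and -1.17 and -1.63 for Scnn1b-Tg AMs, and its part in the result was not tested. The response differed between genotypes by -0.75 (95% interval -1.20 to -0.29), which did not pass the correction (adjusted p = 0.539, edgeR). Of its exons, 22.3% overlap Tmem198b on the opposite strand, a gene with at most 327 counts, and counting ignored strand, so part of its counts cannot be assigned with certainty.

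Timp2 (ENSMUSG00000017466, chr11:118301069-118355740), the TIMP with the highest level in these cells, fell with LPS. WT libraries held 66.3, 87.0 and 86.0 CPM in medium and 26.0, 32.0 and 29.7 CPM with LPS. Scnn1b-Tg libraries held 170, 118 and 102 CPM in medium and 45.6, 41.3 and 30.9 CPM with LPS. The level dropped in each of the 6 pools, to between 0.346 and 0.392 of medium in WT and between 0.268 and 0.351 in Scnn1b-Tg AMs. The log2 fold change was -1.45 ± 0.192 SE in WT AMs (adjusted p = 2.02e-04, edgeR) and -1.72 ± 0.193 in Scnn1b-Tg AMs (adjusted p = 4.63e-05).

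Mmp8, neutrophil collagenase (ENSMUSG00000005800, chr9:7558456-7568485), was low. WT libraries held 6.18, 7.52 and 4.72 CPM in medium and 3.21, 5.29 and 2.78 CPM with LPS, and Scnn1b-Tg libraries held 15.5, 11.3 and 6.74 CPM and then 9.60, 5.15 and 2.66 CPM. Medium and LPS groups overlapped in each genotype, but within all 6 pools the LPS library was the lower of the pair, at 0.394 to 0.704 of medium. The order of the pools was the same before and after LPS, WT 17 above WT 16 above WT 18 and Tg 17 above Tg 18 above Tg 19. The log2 fold change was -0.71 ± 0.298 SE in WT AMs (adjusted p = 0.0982, edgeR) and -1.01 ± 0.294 in Scnn1b-Tg AMs (adjusted p = 0.0201). With pool as a block, which pairs libraries from the same animals, the value in WT AMs passed the test, at -0.72 as a random effect (adjusted p = 0.0303, limma) and -0.73 as a fixed term (adjusted p = 0.00714, edgeR). In Scnn1b-Tg AMs the call was lost without the batch term (adjusted p = 0.130) and without any of 3 libraries, Tg 19 with LPS (-0.72, adjusted p = 0.0599), Tg 17 in medium (-1.02, adjusted p = 0.0600) or Tg 18 in medium (-0.80, adjusted p = 0.0832, all edgeR). Summed neutrophil markers ran from 13.3 to 19.7 CPM without LPS and from 12.4 to 12.9 CPM with it in WT AMs. The Scnn1b-Tg libraries lay at 18.4 to 22.4 CPM in medium and 13.6 to 17.4 CPM with LPS. Genes of this sum moved in opposite directions. Means of S100a8, Camp and Mmp25 were higher with LPS in both genotypes, and those of Cxcr2, Csf3r and Ltf were lower. S100a8 averaged 2.86 CPM before and 7.32 CPM after LPS in WT libraries, and 4.53 and 11.1 CPM in Scnn1b-Tg libraries. Cxcr2 averaged 4.01 and 0.186 CPM, and 7.50 and 0.232 CPM, in the same order. The part of these markers in the Mmp8 values was not tested.

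Timp1 (ENSMUSG00000001131, chrX:20870166-20874735), the inducible inhibitor of secreted MMPs, was near the floor. Its counts were 8, 13 and 0 in WT medium, 10, 5 and 32 in WT LPS, 33, 17 and 35 in Scnn1b-Tg medium and 47, 66 and 40 in Scnn1b-Tg LPS libraries. No LPS change passed the test (log2 fold change 1.03 ± 0.971 SE with adjusted p = 0.481 in WT and 0.87 ± 0.822 with adjusted p = 0.459 in Scnn1b-Tg AMs, edgeR). The 95% intervals, -1.12 to 3.18 and -0.95 to 2.69, leave room for a change in either direction. Leaving out WT 18 with LPS took the WT value to -0.025.

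Mmp9, gelatinase B (ENSMUSG00000017737, chr2:164940780-164955850), held 0 counts in 9 libraries and 3 counts in the remaining 3, all from Scnn1b-Tg pools. The floor of 8 counts per library, the worth of 3 reads, corresponds to 0.131 to 0.166 CPM, so a level below that was not detectable at this depth. It was not tested.

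**Figure D3:**
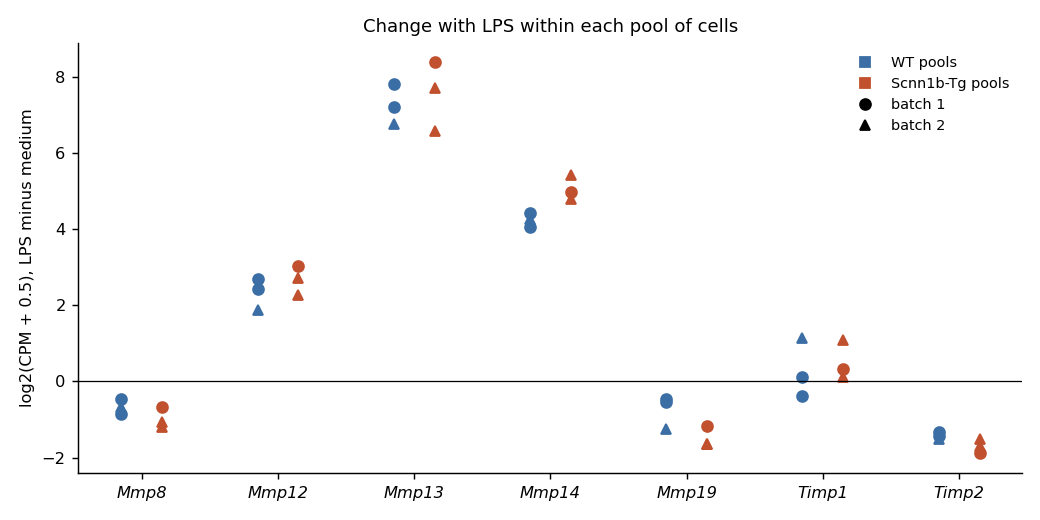
Difference in log2(CPM + 0.5) between the LPS and the medium library of each pool for the 7 members tested, with WT pools on the left and Scnn1b-Tg pools on the right of each gene and symbols for the batch. All 6 pools lie above 0 for Mmp12, Mmp13 and Mmp14 and below 0 for Mmp8, Mmp19 and Timp2, while Timp1 pools lie on both sides.

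Levels were then set side by side per kb of merged exons, which allows a comparison between genes. In WT AMs in medium the order was Mmp12 at 92.6 ± 19.4, Mmp19 at 21.0 ± 1.07, Timp2 at 20.5 ± 3.00, Mmp14 at 4.12 ± 0.511, Mmp8 at 2.53 ± 0.577, Mmp13 at 1.26 ± 0.165 and Timp1 at 0.153 ± 0.149 CPM per kb (mean ± SD, n = 3), and Mmp19 and Timp2 did not differ beyond their spread. With LPS it became Mmp12 at 461 ± 60.1, Mmp13 at 224 ± 58.0, Mmp14 at 80.3 ± 13.6, Mmp19 at 12.9 ± 3.94, Timp2 at 7.51 ± 0.783, Mmp8 at 1.55 ± 0.554 and Timp1 at 0.334 ± 0.306 CPM per kb. Mmp13 thus moved from behind Mmp8 to next after Mmp12. In Scnn1b-Tg AMs in medium Timp2 came next after Mmp12, at 33.3 ± 9.18 against 61.7 ± 13.6 CPM per kb, followed by Mmp19 at 19.7 ± 1.34, Mmp8 at 4.61 ± 1.81, Mmp14 at 2.53 ± 0.808, Mmp13 at 0.660 ± 0.369 and Timp1 at 0.579 ± 0.193 CPM per kb. With LPS, Scnn1b-Tg AMs held Mmp12 at 388 ± 47.8, Mmp13 at 151 ± 28.5, Mmp14 at 84.4 ± 13.6, Timp2 at 10.1 ± 1.94, Mmp19 at 7.13 ± 1.93, Mmp8 at 2.39 ± 1.45 and Timp1 at 1.07 ± 0.303 CPM per kb, where Timp2 and Mmp19 overlapped. Per kb of the longest coding transcript, a length added after the data were seen, Mmp14 and Mmp13 changed places in Scnn1b-Tg AMs with LPS, at 155.4 ± 25.0 and 150.7 ± 28.5, as did Mmp14 and Mmp8 in medium, at 4.66 ± 1.49 and 4.61 ± 1.81, and neither pair differed beyond its spread.

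As a share of the summed level of the 8 members per kb, Mmp12 made up 64.7% in WT medium and 58.8% in WT LPS libraries, and 50.04% and 60.4% in Scnn1b-Tg libraries. The share of Mmp13 went from 0.905% to 28.1% in WT and from 0.538% to 23.4% in Scnn1b-Tg AMs, and that of Timp2 from 14.4% to 0.969% and from 27.1% to 1.56%. Per kb of the longest coding transcript these shares were smaller, from 0.537% to 16.8% and from 0.343% to 13.6% for Mmp13 and from 8.96% to 0.605% and from 18.6% to 0.953% for Timp2. The summed level of the 6 MMPs over that of both TIMPs was 5.89 ± 0.260 in WT medium, 100.2 ± 19.8 in WT LPS, 2.79 ± 0.949 in Scnn1b-Tg medium and 57.6 ± 7.005 in Scnn1b-Tg LPS libraries (SD, n = 3). In both treatments the ratio was lower in every Scnn1b-Tg library than in any WT library, at 1.92 to 3.80 against 5.65 to 6.17 in medium and 50.8 to 64.8 against 77.4 to 113 with LPS. Of all single genes, 9.38% lay lower in this way in medium. That share with LPS is not given here, and no such share was taken for ratios. Medium and LPS libraries came from the same 6 pools, so the separations in medium and with LPS are not independent. Mmp12 alone overlapped between genotypes in both treatments, and Timp2 alone did with LPS. The merged exons of Mmp12 span 7237 bases, so the ratio depends on the length used: per kb of the longest coding transcript it was 10.1, 160.7, 4.61 and 95.4 in the same order. These ratios are descriptions of transcript levels with no test. Mmp12 held the largest part of the MMP sum and Timp2 most of the TIMP sum. With LPS, Mmp13 (28.1% in WT and 23.4% in Scnn1b-Tg AMs, of all 8 members per kb of merged exons) and Mmp14 (10.2% and 13.1%) were large parts as well.

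**Figure D4:**
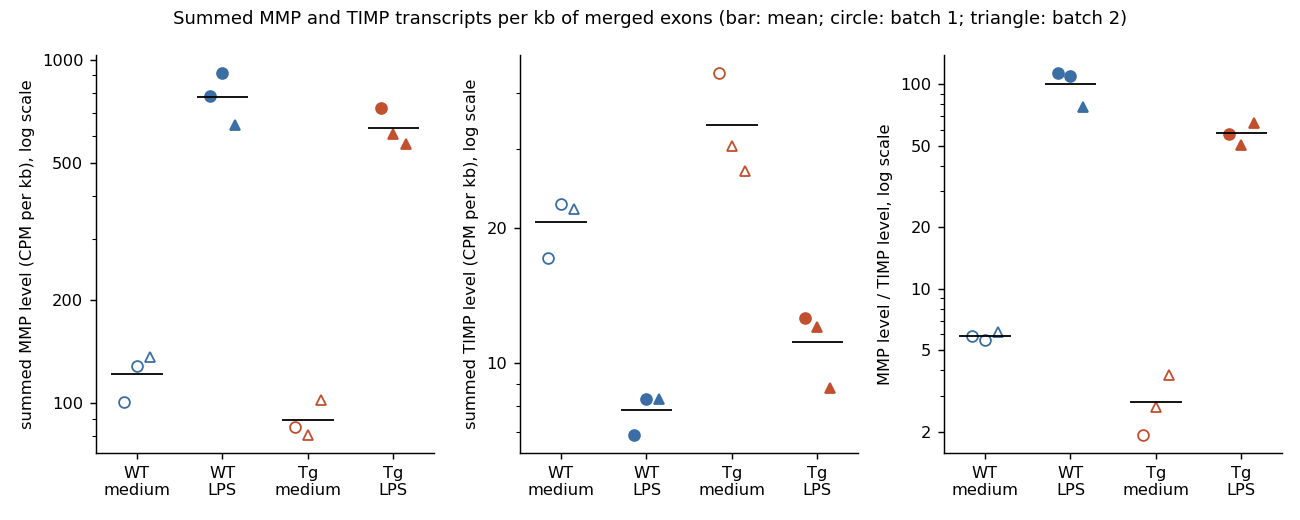
Summed MMP level, summed TIMP level (CPM per kb of merged exons) and their ratio in each of the 12 libraries, on log axes, with bars at the mean of 3 libraries. The ratio lies at 5.65 to 6.17 and 1.92 to 3.80 in WT and Scnn1b-Tg medium libraries and at 77.4 to 113 and 50.8 to 64.8 with LPS.

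The comparison of genotypes asked whether the members differ between Scnn1b-Tg and WT AMs. It shares its libraries with the LPS comparisons. In medium, 0 of 7 members passed the test by edgeR, with 5 at an unadjusted p under 0.05, against a background of 0.262% of all genes called and 13.0% at an unadjusted p under 0.05. DESeq2 called 3, of which Timp2 and Mmp8 were higher and Mmp14 lower in Scnn1b-Tg AMs (adjusted p = 0.0118, 0.0184 and 0.0369), against 3.64% of all genes called by DESeq2. Timp2 and Timp1 were higher and Mmp13 and Mmp14 lower in every Scnn1b-Tg library than in any WT library, where 9.02% and 9.38% of all genes showed this in each direction.

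For Timp2 in medium the difference was 0.74 ± 0.190 SE on the log2 scale (95% interval 0.32 to 1.16, adjusted p = 0.145, edgeR), and it was 1.16 in batch 1 and 0.35 in batch 2. Mmp8 differed by 1.10 ± 0.301 (95% interval 0.44 to 1.77, adjusted p = 0.164), with 1.13 and 0.82 in the batches. The values of Mmp14 and Mmp12 were both -0.59 (95% intervals -0.98 to -0.20 and -1.02 to -0.16, adjusted p = 0.202 and 0.241), and both were negative in each batch. Mmp13 stood at -0.94 (-1.79 to -0.10, adjusted p = 0.332), at -0.43 without Tg 17 in medium and at -1.42 without Tg 19 in medium, and Mmp19 at 0.047 (-0.28 to 0.38, adjusted p = 0.942). The value of Timp1, 1.82 (-0.31 to 3.94, adjusted p = 0.473), was 0.92 without WT 18 in medium and 2.66 without WT 17 in medium. The summed epithelial markers, at 85.7 to 109 CPM in WT and 41.6 to 73.3 CPM in Scnn1b-Tg medium libraries, moved with genotype as well. So did the summed AM markers, which were higher in Scnn1b-Tg medium libraries, although the means of Marco and Lpl were lower there. The part of both lists in these values was not tested.

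With LPS, 0 of 7 members passed the test between genotypes by edgeR, with 3 at an unadjusted p under 0.05, against a background of 0.051% and 6.78% of all genes. Mmp19 was lower in Scnn1b-Tg AMs, by -0.70 ± 0.151 SE on the log2 scale (95% interval -1.03 to -0.36, adjusted p = 0.216, edgeR), with overlapping groups and -0.69 and -0.46 in batches 1 and 2. DESeq2 called Mmp19 alone (adjusted p = 0.00333), against 1.06% of all genes. Mmp8 stood at 0.81 (95% interval 0.14 to 1.48, adjusted p = 0.624) and Timp2 at 0.48 (0.049 to 0.90, adjusted p = 0.677). The values of Mmp12, Mmp13 and Mmp14 were -0.25 (-0.68 to 0.17), -0.58 (-1.29 to 0.14) and 0.19 (-0.20 to 0.57), with adjusted p = 0.980, 0.859 and 1.00. By qPCR, the paper describes Mmp12 as upregulated in Scnn1b-Tg AMs after LPS, the opposite direction to the value here. Timp1 was higher in every Scnn1b-Tg library than in any WT library, as 5.72% of all genes were, at 1.65 (-0.24 to 3.54, adjusted p = 0.829) and at 3.19 without WT 18 with LPS. In the response to LPS itself, 0 members differed between genotypes by edgeR, by DESeq2 and with either pool block, and 2 (Mmp14 and Mmp19) were at an unadjusted p under 0.05 by edgeR, where 0.0% of all genes were called, 5.79% were at an unadjusted p under 0.05 and DESeq2 called 0.561%.

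The neighbourhood of the members was examined next. Mmp13, Mmp12 and Mmp8 lie in a cluster of 10 Mmp genes that spans 427 kb of chromosome 9. Between and beside them, Mmp1b, Mmp3, Mmp10 and Mmp27 had at most 32 counts in any library, and Mmp1a, Mmp20 and Mmp7 were not analysed here. Mmp13 and Mmp12, which rose, are adjacent at one end of the cluster, and Mmp8, which was lower in the LPS library of every pool, lies further along it. The 157 bases of Mmp12 exons (2.17%) that overlap Mmp1b concern a gene with at most 10 counts.

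Other genes of the pathway came from fixed lists. Of 17 other MMPs, 13 were in the table and 7 were tested, and 0 were called with LPS in either genotype by edgeR, with 1 at an unadjusted p under 0.05 in each, and DESeq2 called 0 in WT and 1 (Mmp25, higher, from 5 to 13 counts in medium) in Scnn1b-Tg AMs. Their mean levels were under 1 CPM in every group. Among 8 other inhibitors and partners, 4 were tested and Lcn2, whose protein binds and stabilises MMP9, rose in both genotypes (log2 fold change 6.60 ± 0.485 SE, adjusted p = 2.83e-06 in WT, and 7.03 ± 0.455, adjusted p = 7.81e-07 in Scnn1b-Tg AMs, edgeR). Lcn2 held 3 to 19 counts in WT and 17 to 23 in Scnn1b-Tg medium libraries, so the size of its fold rests on few counts. Mmp9 itself held at most 3 counts in any library. Bsg, which encodes the MMP inducer basigin, had log2 fold changes of -0.09 and 0.09 (adjusted p = 0.496 and 0.462), and Timp3 averaged 0.140 to 0.328 CPM.

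Of 8 ADAM and ADAMTS proteases tested, 2 fell in each genotype. Adamts4 was called higher with LPS as well, but it held 0 counts in all medium libraries and 3 to 15 in WT LPS and 18 to 30 in Scnn1b-Tg LPS libraries, and it passed the filter through the latter, so its call is not read as a rise. The sheddases Adam10 and Adam15 fell by 0.70 and 0.69 on the log2 scale in WT and by 0.93 and 0.62 in Scnn1b-Tg AMs. Adam17, with the highest mean of this list (390 CPM over the 12 libraries), had log2 fold changes of 0.42 and 0.38 (adjusted p = 0.0593 and 0.0756, edgeR). In plasminogen activation, the protease cascade that can activate pro-MMPs, 3 of 7 were called higher and 3 lower in WT AMs and 2 higher and 3 lower in Scnn1b-Tg AMs. One of those called higher in both, Serpine2, held at most 5 counts in any medium library and 13 to 43 with LPS, and without it 2 rose in WT and 1 in Scnn1b-Tg AMs. Plau, the urokinase itself, rose in both genotypes, with group means of 1.69 CPM before and 2.79 CPM after LPS in WT AMs and 1.02 and 3.43 CPM in those of Scnn1b-Tg mice. Plaur, the urokinase receptor, rose in WT AMs (log2 fold change 0.55, adjusted p = 0.00702, edgeR) and had a value of 0.23 in Scnn1b-Tg AMs (adjusted p = 0.196), while the plasminogen receptor Plgrkt and annexin gene Anxa2 fell by 0.93 and 0.35 in WT and by 1.10 and 0.28 in Scnn1b-Tg AMs.

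Among 13 cathepsins, serine protease inhibitors and related genes tested, 5 were called higher and 6 lower in WT AMs and 4 higher and 5 lower in Scnn1b-Tg AMs, or 4 higher in WT AMs without Serpina3g, which held 0 counts in WT medium libraries. The protease inhibitor Slpi averaged 224 CPM in WT medium and 3335 CPM in WT LPS libraries, with 226 and 3452 CPM in the Scnn1b-Tg libraries (log2 fold changes 3.90 and 3.93), and Wfdc17 rose by log2 fold changes of 2.37 and 1.69. Serpinb1a, an inhibitor of neutrophil serine proteases, rose in WT AMs (0.71, adjusted p = 0.00900, edgeR) and had a value of 0.25 in Scnn1b-Tg AMs (adjusted p = 0.299). The lysosomal proteases Ctsd, Ctss and Ctsk fell in both genotypes, Ctsd by 1.50 and 1.67, Ctss by 0.50 and 0.60 and Ctsk by 0.46 and 0.53 on the log2 scale. Ctsz, another lysosomal protease, rose by log2 fold changes of 0.28 and 0.48 (adjusted p = 0.00217 and 4.37e-05, edgeR), and the abundant Ctsb stood at -0.043 and -0.076 (adjusted p = 0.747 and 0.518). Of 8 matrix substrates and crosslinkers, 3 rose and 1 fell in WT and 4 rose (Tgm2 as well) and 1 fell in Scnn1b-Tg AMs, where Vcan was also called higher from at most 8 counts per medium library. Lox, which crosslinks collagen and elastin, rose by log2 fold changes of 8.23 and 8.14, to means of 162.5 and 229 CPM, and the basement membrane collagens Col4a1 and Col4a2 rose by log2 fold changes of 2.33 to 2.71 in the 2 genotypes. Spp1, osteopontin, which MMPs cleave, fell by 1.66 and 1.45. In none of these lists was a gene called by edgeR between genotypes or in the difference of responses, with at most 4 genes of any list at an unadjusted p under 0.05. DESeq2 called 3 genes between genotypes in medium (Wfdc17 and Serpina3g higher and Serpinb1a lower in Scnn1b-Tg AMs, with Serpina3g at 0 counts in WT and 0 to 15 in Scnn1b-Tg libraries) and 1 with LPS (Serpinb1a, lower), and 0 in the difference of responses.

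The genes whose pattern over the 12 libraries was most like that of each member were taken from 9101 genes averaging at least 5 CPM, by Pearson's r of log2 CPM, as a description in which the contrast of LPS and medium is shared. For Mmp12 they were Ybx3, Ptger2 and Rhob (r = 0.991, 0.990 and 0.989), for Mmp13 Plk2, Rhob and Nlrp3 (0.996, 0.996 and 0.995) and for Mmp14 Traf2, Sh3bp5 and Ets2 (0.997, 0.996 and 0.996). Rhob thus appeared for both neighbours of chromosome 9. For Timp2 they were Siae, Plcl2 and Man2b1 (0.981, 0.973 and 0.971), for Mmp19 Pld4 and Sept9 (0.966 and 0.964) and for Mmp8 Dennd2a, Ccdc186 and Gm15448 (0.929, 0.912 and 0.902). For the sparse Timp1 the values were lower, with Lrrc61, Rcbtb1 and Ciao2b at 0.820, 0.807 and 0.744.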

How the data were processed

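AMs of 6 pools were measured by RNA-seq with and without LPS, 1 library per pool and treatment. Libraries were made with a low-input full-length cDNA kit and sequenced as read pairs of 125 bp. The authors aligned reads to mm10 with HISAT2 in unstranded mode and quantified GENCODE M20 with StringTie, and they deposited estimated counts, whole numbers per gene, without normalization. A read pair is worth more than 1 deposited count, so the floor of 3 reads was set at 8 counts, and this floor covers counting error only. Symbols, positions and exons came from GENCODE M21 on the same build (20132 of 20551 IDs matched), and promoters from RefSeq.

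Genes were kept by filterByExpr (minimum count 10, total 15), which left 13729 of 20551. The TMM method and the quasi-likelihood test of edgeR 4.0.16 (R 4.3.3) were used with a term per group and for batch over all 12 libraries, p-values adjusted by Benjamini-Hochberg over all genes, and a threshold of 0.05. The code was tested on simulated data. The 8 members and all gene lists were chosen with earlier results of these data known. Named genes are all members, the 3 largest called rises and falls in WT AMs per list with at least 5 CPM, and the 3 genes most similar to each member. Adamts4, Mmp25, Serpine2, Plau, Vcan, Tgm2, Serpina3g, Timp3, Bsg, Ctsz, Ctsb, Adam17 and Prg2 were named after their values were seen. So were the AM markers Chil3, Marco, Car4, Plet1 and Lpl. The same holds for the markers Ear6, Ccr3, S100a8, Camp, Cxcr2, Csf3r, Ltf, Dcn and Pdgfra. A few genes that this rule or the lists name are not reported here. Batch and pool differences use log2(CPM + 0.5).

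The libraries of a pool share animals, and their deviations from group means correlated at 0.137 to 0.335 in all 6 pools, so pool blocks pair LPS with medium. Numbers 17 and 18 name different pools in the 2 genotypes. Alternatives were DESeq2 1.42.0, no filter, counts divided by 5, no batch term, 6 libraries only, each library left out, and pool blocks (limma 3.58.1 and edgeR). The 0 values of Mmp9 were given no fold. P-values of the main fit measure the spread between libraries of a group after the batch term, and this fit does not pair the 2 libraries of a pool.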

Additional observations from a re-analysis of the deposited data

How the results depend on the processing

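Among the values of single members recomputed under alternatives, 616 kept direction and call, 10 changed sign, 9 gained and 4 lost a call, and the LPS calls of Mmp12, Mmp13, Mmp14, Mmp19 and Timp2 held in all of them in both genotypes. The number of members called with LPS ran from 5 to 6 in each genotype with each library left out. For the genotypes and for the difference of responses it stayed at 0. Between genotypes, DESeq2 called 1 member with LPS and 3 in medium. The pool number as a replicate block in place of batch called 2 in medium, Timp2 (adjusted p = 0.0341) and Mmp8 (adjusted p = 0.0331, both edgeR), although the pool numbers name different pools. Of all 13729 genes, this block called 25 higher and 23 lower in medium. Libraries of the same number and treatment correlated at 0.110 to 0.261 across genotypes, over 2 shared numbers, and the labels give them no shared animals. Pool blocks raised the WT count with LPS from 5 to 6, through Mmp8, and changed no other call. The calls over all genes in WT AMs rose as well, from 2084 higher and 2158 lower to 2593 and 2712 with pool as a random effect. With pool as a fixed term they were 2474 and 2553. With each library left out, Timp1 with LPS in WT AMs ran from -0.025 to 1.88, Mmp19 between genotypes in medium from -0.023 to 0.23, and the difference of responses from -1.02 to 0.95 for Timp1 and from -0.043 to 0.89 for Mmp13. Mmp19 in medium also went to -0.093 without the batch term and to -0.050 in a fit of 6 libraries. The cause was not tested. Depth limits Mmp9 and Timp1.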
